A study of Mus musculus with 4 samples.

Results

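Oxidative phosphorylation is carried out by 5 protein complexes of the inner mitochondrial membrane, and the genes described here are those that encode its subunits in the nucleus. They were chosen by gene symbol alone, as the entries for Nduf subunits, Sdha to Sdhd, Uqcr genes, Cyc1, Cox4 to Cox8 genes and Atp5 genes, without pseudogene names. The rule found 80 genes among 14572 entries, of which 38 were assigned by name to complex I, 4 to complex II, 9 to complex III, 13 to complex IV and 16 to complex V. All 80 passed the filter on low counts.

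RNA was sequenced from whole retinas of C57BL/6 mice whose right eyes had been held at raised pressure for 1 h (acute ocular hypertension, a model of glaucoma), and the tissue was taken 5 days later. Wild-type retinas gave the libraries P1041 and P1033, and retinas labelled PLSCR1 transgenic, for a phospholipid scramblase, gave TP-1036 and TP-1040. All 4 were from injured eyes, so each difference is between genotype labels after injury, and uninjured retinas were not analysed here. The labels name neither the promoter of the transgene nor the number of animals behind a library, and they give an embryonic age that is at odds with the injury. The columns TP-1036 and TP-1040 were taken as transgenic because they are marked case. Levels are given as CPM, the count divided by the scaled library size. Plscr1 itself stood at 7.95 and 8.28 CPM in wild type against 9.82 and 8.03 CPM in TP-1036 and TP-1040, which overlapped, so these reads do not check the labels. Library totals ran from 28866589 to 41215649 estimated reads. Over all 14421 tested genes 1 passed the test, Lyz2, the lysozyme of myeloid cells, at a log2 difference of 2.55 ± 0.18 (SE, edgeR adjusted p = 0.0419). DESeq2 called 84 genes.

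The respiratory chain passes electrons from NADH (complex I) and succinate (complex II) through complex III to oxygen at complex IV, and complex V uses the resulting proton gradient to make ATP. Most subunits are made from nuclear genes, while a small hydrophobic core of complexes I, III, IV and V is encoded by mitochondrial DNA. The retina is among the tissues with the highest oxygen use, and its mitochondria are densest in the inner segments of photoreceptors. Transcription of the nuclear subunit genes is known to involve the factors NRF1, GABP (an ETS factor) and YY1.

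As a description of sequence, the promoters of the members were read for short forms of the sites of these factors. Windows of 250 bases before to 50 bases after the start site were available from RefSeq (GRCm38.p6) for 66 of the 80 genes. The motifs searched on both strands were GCGCATGCG (NRF1-type, which in a full palindrome is found on both strands, 1 base apart), CCGGAAGT (ETS or GABP-type) and AAGATGGCG (YY1-type). The 4 windows below are shown because they give an example of each motif and the single gene with 2 kinds, with the motif letters in capitals and the bases 5′ to 3′ on the strand of the gene. They lie at chr15:102670998-102671297 (minus strand, Atp5g2), chr19:7217567-7217866 (minus strand, Cox8a), chr10:80249199-80249498 (plus strand, Ndufs7) and chr10:80406772-80407071 (minus strand, Uqcr11).
Atp5g2: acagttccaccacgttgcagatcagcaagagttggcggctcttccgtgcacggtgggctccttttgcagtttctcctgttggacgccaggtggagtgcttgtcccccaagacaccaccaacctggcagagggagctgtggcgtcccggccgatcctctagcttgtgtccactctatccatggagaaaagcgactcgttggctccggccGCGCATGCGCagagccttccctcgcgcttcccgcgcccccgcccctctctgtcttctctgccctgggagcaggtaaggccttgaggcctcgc
Cox8a: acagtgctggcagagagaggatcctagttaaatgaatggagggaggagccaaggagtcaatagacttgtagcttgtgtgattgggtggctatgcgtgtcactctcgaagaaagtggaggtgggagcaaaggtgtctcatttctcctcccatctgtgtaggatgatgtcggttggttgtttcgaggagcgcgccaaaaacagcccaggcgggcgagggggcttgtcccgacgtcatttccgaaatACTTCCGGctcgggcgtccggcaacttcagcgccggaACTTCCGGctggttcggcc
Ndufs7: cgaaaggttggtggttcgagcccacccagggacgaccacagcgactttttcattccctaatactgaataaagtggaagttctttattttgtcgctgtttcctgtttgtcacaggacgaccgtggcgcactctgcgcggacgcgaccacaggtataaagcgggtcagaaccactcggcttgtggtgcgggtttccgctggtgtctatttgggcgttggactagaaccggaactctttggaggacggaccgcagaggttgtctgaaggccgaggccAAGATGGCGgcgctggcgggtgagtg
Uqcr11: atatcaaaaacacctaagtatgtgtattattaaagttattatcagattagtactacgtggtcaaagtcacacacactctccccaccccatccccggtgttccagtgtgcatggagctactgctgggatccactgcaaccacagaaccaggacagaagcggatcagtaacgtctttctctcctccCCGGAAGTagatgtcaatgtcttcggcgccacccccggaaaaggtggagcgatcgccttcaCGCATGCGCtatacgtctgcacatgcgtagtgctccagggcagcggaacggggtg

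The NRF1-type letters stood in 8 of 71 member windows (11.3%, against 1.75% of all 32851 windows), the ETS-type letters in 5 (7.04%, against 3.89%) and the YY1-type letters in 7 (9.86%, against 1.40%). At least 1 of the 3 was found in 19 of the 66 genes (28.8%, against 7.48% of all 27025 genes). The 27025 genes include genes not tested here, and the members were not compared with promoters of like base content. The YY1-type letters were placed alike, since 6 of their 7 occurrences began 22 to 35 bases after the start site, in Atp5j2, Ndufa9, Ndufc1, Ndufs4, Ndufs6 and Ndufs7, and 1 lay before it, in Atp5j. Over all windows 53.2% of YY1-type occurrences began after the start site. The YY1-type letters contain ATG, the letters of a start codon. Whether these occurrences stand where the coding sequence begins was not tested, so their shared place is not read as one of YY1 sites. Of the 13 NRF1-type occurrences, with both strands of a palindrome counted, 2 began after the start site, where 12.1% did over all windows. The genes with and without any of the 3 motifs had median log2 differences between the genotype labels of 0.19 (19 genes) and 0.20 (47 genes).

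The members together were highest in the transgenic-labelled library TP-1036, while TP-1040 lay between the wild-type libraries. Their summed level was 6242 CPM in P1041, 5564 in P1033, 7513 in TP-1036 and 6028 in TP-1040, or 5903 ± 479.8 in wild type against 6771 ± 1050 (SD, n = 2 per group). The groups therefore overlapped in the sum, since P1041 exceeded TP-1040. Gene by gene, TP-1036 was the highest library for 77 of the 80 members, against 38.7% of all tested genes, and P1033 was the lowest for 67, where it was the lowest for 3626 of 14421 tested genes. In 54 members the libraries stood in a single order, with TP-1036 first, then P1041, TP-1040 and P1033, an order seen in 8.4% of all tested genes. On log2(CPM + 1) TP-1036 differed from the wild-type mean by a median of 0.36 over the members and TP-1040 by 0.01, while P1033 minus P1041 was -0.17.

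**Figure D1:**
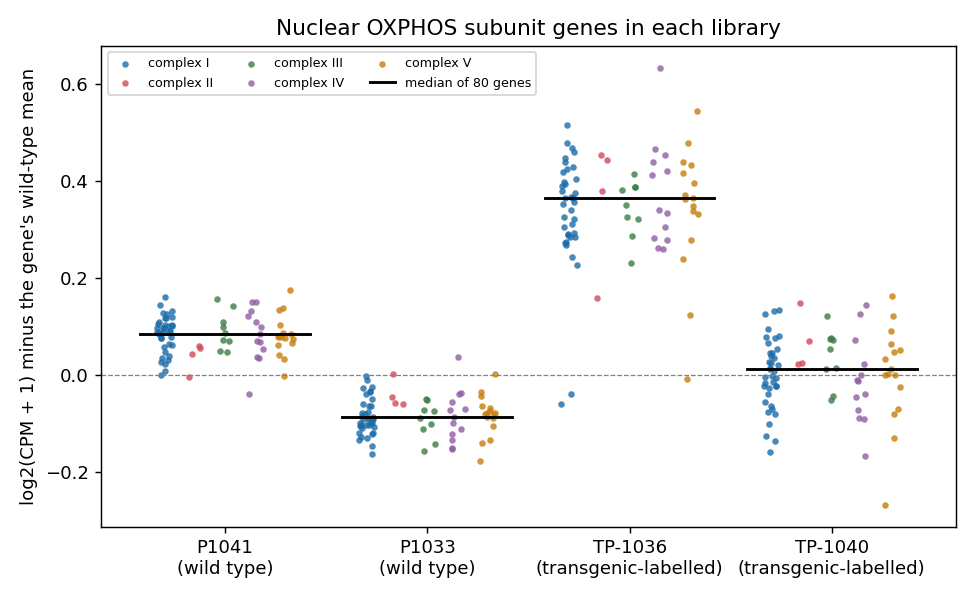
Each point is 1 of the 80 genes, plotted as its log2(CPM + 1) minus its own wild-type mean in each of the 4 libraries and coloured by complex; black bars are the medians. TP-1036 stands at a median of 0.36, with points of all 5 complexes mixed, while TP-1040 stands at 0.01.

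Between the genotype labels, 76 of the 80 members had a higher and 4 a lower value in the transgenic-labelled group, where 50.1% of all tested genes had a higher value. The median log2 difference was 0.20, against 0.0009 over all tested genes, and members ranged from -0.07 (Atp5s) to 0.36 (Cox4i2). With edgeR's quasi-likelihood test 0 of 80 passed, where 0.00693% of all tested genes did. No member reached an unadjusted p of 0.05, against 9.77% of all tested genes (smallest 0.0526, with an adjusted p of 0.50), and DESeq2 and limma also called 0. The members differed from each other less than genes at large did, with an interquartile range of the log2 difference of 0.08 against 0.35, and 65 of 80 lay within 0.1 of the members' median (30.5% of all tested genes lay as close to theirs). The narrow spread was not particular to them. Their quartiles were 0.15 and 0.23, those of 80 cytosolic ribosomal protein genes 0.23 and 0.31. Those of 78 mitochondrial ribosomal protein genes lay wider, at 0.06 and 0.24. Both transgenic-labelled libraries lay above both wild-type libraries in 12 of the 80 members, where 24.0% of all tested genes did so.

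**Figure D2:**
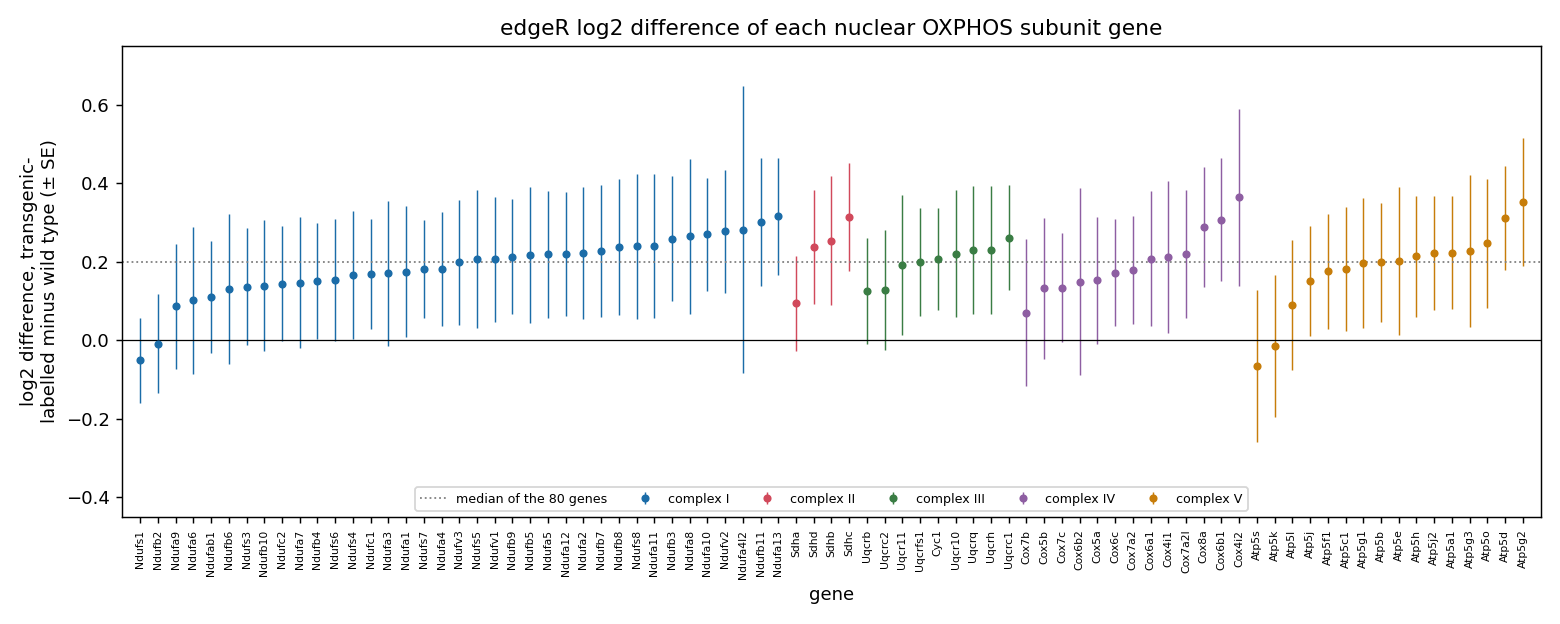
Each point is the log2 difference of 1 gene (79 of the 80), transgenic-labelled minus wild type, with its SE from edgeR (2 libraries per group), ordered within complexes I to V. Most points lie near the dotted median of 0.20, and the 4 values below 0 are those of Ndufs1, Ndufb2, Atp5s and Atp5k.

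These values shifted with each library left out, and most with TP-1036 or TP-1040. Without P1033 the members' median log2 difference was 0.12, and without P1041 it was 0.29. Without TP-1036 the members' median log2 difference was 0.01, with 45 genes higher and 35 lower. Without TP-1040 it was 0.37, and 49 members passed the test, all of them higher, where 13.3% of all tested genes passed in that direction. In those fits 1 library stands alone in its group and is assumed to vary like the other genotype.

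Complex I, the NADH dehydrogenase, had 36 of 38 members with a higher value and a median log2 difference of 0.19. The 7 nuclear core subunits, which hold the flavin, most iron-sulfur clusters and the quinone site, had a median of 0.19, and the 29 accessory subunits one of 0.20. Ndufa13, an accessory subunit also known as GRIM-19, measured 45.4 and 40.8 CPM in wild type and 59.9 and 47.3 CPM in TP-1036 and TP-1040. Its groups did not overlap, and its log2 difference of 0.32 ± 0.15 (SE) did not pass (adjusted p = 0.504). Ndufa10, an accessory subunit related to nucleoside kinases, measured 117 and 101 CPM against 144 and 118 CPM, again without overlap, at 0.27 ± 0.14. Ndufb11, an X-linked accessory subunit, measured 56.2 and 48.2 CPM against 73.0 and 55.7 CPM, so that TP-1040 fell below P1041. Ndufs7, the core subunit next to the quinone site whose promoter is printed above, was the third gene of the complex to be higher without overlap, at 44.8 and 42.4 CPM against 52.8 and 46.0 CPM. The 3 genes are 7.9% of the complex, where 24.0% of all tested genes were higher without overlap.

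Ndufs1, the largest core subunit, did not share the pattern. It measured 97.4 and 93.8 CPM in wild type against 93.0 and 91.4 CPM. It was the only member with both transgenic-labelled values below both wild-type values, where 3507 of 14421 tested genes stood so. Its log2 difference was -0.05 ± 0.11 (adjusted p = 0.835), and it stayed below 0 in each alternative, from -0.09 with library totals alone to -0.025 without P1041. Ndufb2, an accessory subunit of the membrane arm, had both transgenic-labelled values between the wild-type ones, at 49.99 and 43.5 CPM against 44.8 and 48.2 CPM, and changed sign with the scaling (-0.01, and 0.01 with upper-quartile scaling). Both were named after their values were seen, as the members of the complex with a lower value. By level per length, Ndufa4 led the complex at a mean of 225 CPM per kilobase of transcript.

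Complex II, succinate dehydrogenase, is the only complex made entirely from nuclear genes, and its 4 genes all had higher values (median 0.25 on the log2 scale). Sdhc, a membrane anchor, measured 54.8 and 55.0 CPM in the wild-type libraries, which nearly coincided, and 75.5 and 61.0 CPM in TP-1036 and TP-1040. Its difference was 0.31 ± 0.14 (adjusted p = 0.50), and 0.16 without TP-1036. Sdhd, the other anchor, measured 35.8 and 32.8 CPM against 44.9 and 36.0 CPM. Its groups stood apart by less than 1 CPM between P1041 and TP-1040. Sdhb, the iron-sulfur subunit, measured 37.0 and 34.2 CPM against 48.7 and 36.2 CPM, with TP-1040 below P1041. Sdha, the flavoprotein that oxidises succinate, had the smallest difference of the 4, 0.09 ± 0.12, at 306 and 287 CPM against 331 and 302 CPM. Per length Sdha also had the highest level, at 106 CPM per kilobase against 19.4 to 34.2 for the other 3 genes.

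In complex III, the cytochrome bc1 complex, all 9 members had higher values, with a median log2 difference of 0.21. Uqcrc1, a core protein of the matrix side, measured 186 and 174 CPM in wild type against 236 and 196 CPM, without overlap, and differed by 0.26 ± 0.13 (adjusted p = 0.509). Cyc1, which carries the haem of cytochrome c1, measured 73.5 and 68.5 CPM against 89.0 and 74.9 CPM and also did not overlap. Uqcrfs1, the Rieske iron-sulfur protein, overlapped, at 60.6 and 54.7 CPM against 72.5 and 59.8 CPM. The 5 small subunits had a median of 0.22, and each of them overlapped between the groups, where 7457 of 14421 tested genes did. Uqcr11, with 2 kinds of motif in its promoter, measured 21.8 and 19.7 CPM against 27.5 and 20.0 CPM, and its difference of 0.19 turned to -0.05 without TP-1036. Uqcrb had the highest level per length in the complex, at 130 CPM per kilobase, and a difference of 0.13 ± 0.14. Levels per length were closest together in this complex, from 45.4 (Uqcrfs1) to 130 CPM per kilobase.

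In complex IV, cytochrome c oxidase, all 13 members had a higher value (median log2 difference 0.18), and without TP-1036 the median was -0.01. Several of its subunits exist as a common form and a form of particular tissues or states. Cox4i1, the common form of subunit 4, measured 153 and 133 CPM in wild type against 198 and 134 CPM. Cox4i2, a form linked to low oxygen and known from lung and pericytes, measured 16 and 15.2 CPM against 24.7 and 15.4 CPM. It was the member furthest from its wild-type mean in any library, by 0.63 in TP-1036 on log2(CPM + 1), while TP-1040 lay at -0.01. Its fitted log2 difference was the largest of all members, 0.36 ± 0.23 (adjusted p = 0.529), and was -0.01 without TP-1036. Cox4i2 reads were 10.5% and 11.4% of Cox4i1 reads in P1041 and P1033 and 12.5% and 11.5% in TP-1036 and TP-1040, highest in TP-1036.

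Cox8a, whose promoter holds the ETS-type letters at 2 places, had the highest level per length of complex IV, at 248 CPM per kilobase. It measured 133 and 112 CPM against 166 and 134 CPM, where TP-1040 exceeded P1041 by under 1 CPM, and differed by 0.29 ± 0.15 (adjusted p = 0.514). Cox6b1, a subunit of the intermembrane-space face, measured 62.1 and 51.5 CPM against 77.9 and 62.7 CPM and differed by 0.31 ± 0.16 (adjusted p = 0.508). These were the 2 genes of the complex without overlap, or 15.4% of its members against 24.0% of all tested genes. Cox6b2, the testis form of the same subunit, was the rarest member of complex IV, at 3.37 and 3.60 CPM against 4.37 and 3.37 CPM, or 5.37% to 6.98% of the reads of Cox6b1. Cox6a1 measured 93.4 and 84.7 CPM against 120 and 86.2 CPM. Cox7a2 measured 48.8 and 41.7 CPM against 54.9 and 47.5 CPM. Cox7a2l, a relative of Cox7a2 that helps to join complexes III and IV into supercomplexes, measured 100 and 88.7 CPM against 126 and 94.3 CPM. These 3 had TP-1036 on top and TP-1040 below P1041. The muscle forms Cox6a2, Cox7a1 and Cox8b were not analysed here.

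Ndufa4 is grouped with complex I by its name and is now counted with cytochrome c oxidase. It measured 122 and 102 CPM in wild type against 138 and 116 CPM and differed by 0.18 ± 0.15. Its relative Ndufa4l2, a hypoxia-induced gene and a pericyte marker in brain, was the least abundant of all members, with 31 and 35 reads in wild type and 62 and 39 in TP-1036 and TP-1040. That is 1.08 and 1.05 CPM against 1.64 and 0.952 CPM, and its SE of 0.37 exceeded its log2 difference of 0.28. The summed level of 5 pericyte and smooth muscle markers (5 of 5 present) was 114 and 101 CPM in wild type against 113 and 117 CPM, of which Rgs5 gave 81.7 and 67.5 against 74.4 and 78.7 CPM. By gene, 5 of the 5 lay above the wild-type mean in TP-1036 on log2(CPM + 1) (median 0.23, with Rgs5 at only 0.003). In TP-1040 4 did (median 0.10). TP-1036 was the highest library for only 1 of the 5, Kcnj8, at 2.94 CPM. The part of these cells in the values of Ndufa4l2 and Cox4i2 was not tested.

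Complex V, the ATP synthase, held the most abundant members. Atp5b, the catalytic beta subunit, measured 960 and 857 CPM in wild type against 1147 and 937 CPM. Atp5a1, the alpha subunit, measured 560 and 501 CPM against 675 and 564 CPM. Per length they stood at 509 and 233 CPM per kilobase, the highest of the complex. Atp5a1 lay apart between the groups by the small step from P1041 to TP-1040, and neither passed the test (log2 differences 0.22 ± 0.14 and, for Atp5b, 0.20 ± 0.15). Atp5d, the delta subunit of the central stalk, had the smallest p of all members. It measured 81.5 and 77.8 CPM against 108 and 89.4 CPM, a 1.24-fold difference between means of 79.7 ± 2.63 and 98.9 ± 13.5 CPM (SD, n = 2). Its log2 difference was 0.31 ± 0.13 (adjusted p = 0.50), with 0.45 without TP-1040 and 0.17 without TP-1036.

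The rotating ring of complex V is made of c subunits from 3 genes that differ in their import sequences and encode the same mature protein. Atp5g2, whose promoter with the NRF1-type palindrome is printed above, measured 60.5 and 55.4 CPM in wild type against 84.9 and 63.1 CPM, without overlap. Its difference was 0.35 ± 0.16 on the log2 scale (adjusted p = 0.504). Atp5g1 measured 67.1 and 55.1 CPM against 78.7 and 61.3 CPM. Atp5g3 measured 62.7 and 55.7 CPM against 82.8 and 55.9 CPM, and its difference of 0.23 became -0.08 without TP-1036. The 3 genes thus gave similar numbers of reads, with Atp5g2 at 96.4% and 99.5% of Atp5g3 in wild type and 103% and 113% in TP-1036 and TP-1040. The estimated counts of Atp5g1 were not whole numbers while those of Atp5g2 and Atp5g3 were, and which entries shared reads with Atp5g1 was not tested.

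Atp5k, the e subunit of the membrane sector, and Atp5s, a coupling factor known as factor B, were the 2 genes of complex V with a lower value. Atp5k measured 11.0 and 8.37 CPM against 9.53 and 9.59 CPM, so that both transgenic-labelled values lay between the wild-type ones. Atp5s measured 8.82 and 8.85 CPM against 9.72 and 7.17 CPM. Its wild-type libraries coincided and the transgenic-labelled ones lay on either side of them. The log2 differences were -0.01 ± 0.18 for Atp5k, which turned to 0.01 with quantile normalization, and -0.07 ± 0.19 for Atp5s. Atp5k was named after its values were seen.

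**Figure D3:**
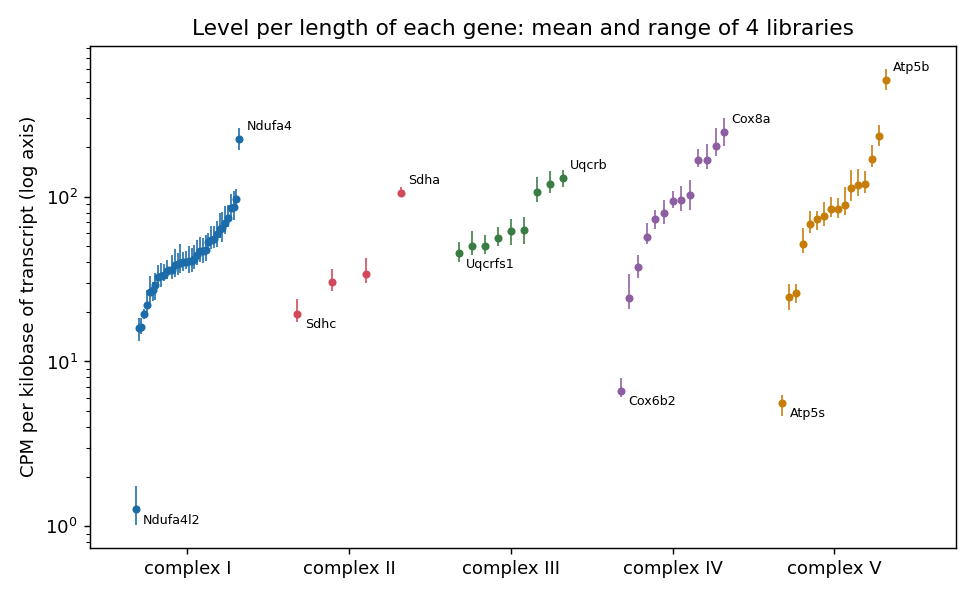
Mean level per length of each gene (CPM per kilobase of transcript, log axis) with the range over the 4 libraries, ordered within each complex. Ndufa4l2 (1.26), Cox6b2 (6.65) and Atp5s (5.60) stand far below the other genes of their complexes, and Atp5b (509) stands above all.

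Differences between the groups went with transcript length across all tested genes but hardly across the members. Spearman's correlation of length with the log2 difference was -0.315 over all tested genes and 0.042 over the members. The members' median length was 863 bases, against 3008 bases over all tested genes. In TP-1036 shorter genes at large were higher. The 139 other tested genes under 600 bases had a median of 0.30 above the wild-type mean on log2(CPM + 1), the 604 from 600 to under 1000 bases 0.32, and the 4526 of 4000 bases or more -0.18. Members under 600 bases stood at 0.35 and those of 600 to under 1000 bases at 0.37, near the other genes of their length. Members of 1000 to under 2000 bases stood at 0.36 (23 genes) where the other genes of that length stood at 0.19, and members of 2000 to under 4000 bases at 0.30 (8 genes) against 0.02. Those 8 genes were spread from -0.06 (Ndufb2) to 0.45 (Sdhc). The lengths are annotated ones, and the lengths of the transcripts in these retinas were not measured. Spearman's correlation of length with the TP-1036 difference was -0.417 across 14345 tested genes and -0.074 across the 80 members, which all share the same 4 libraries. In TP-1040 the class medians lay between -0.01 and 0.04. With an offset that removes each library's trend on transcript length the members' median log2 difference was 0.06, with 61 higher and 19 lower. The part of length in the result was not tested beyond these values.

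**Figure D4:**
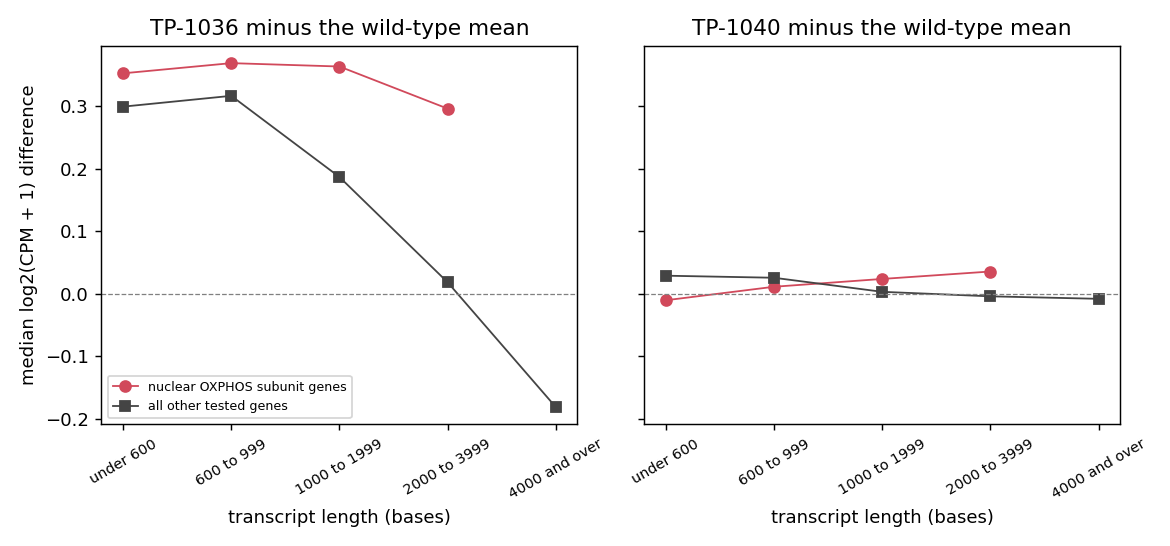
Median log2(CPM + 1) difference from the wild-type mean by class of transcript length, for the 80 genes and for all other tested genes, in TP-1036 (left) and TP-1040 (right). In TP-1036 the other genes fall from 0.30 to -0.18 with length while the members' class medians lie between 0.30 and 0.37, the longest of their classes holding 8 genes. In TP-1040 both lie near 0.

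In 8 related lists of genes 0 passed with edgeR, DESeq2 or limma, and 4 genes reached an unadjusted edgeR p of 0.05 (Ppargc1b, Ucp2, Mrpl54 and Rpl7a). The 13 mitochondrially encoded subunits, which complete the same complexes, summed to 58630 and 49390 CPM in wild type against 61330 and 51000 CPM. Their median log2 difference was 0.04, with 10 higher and 3 lower, and it was -0.09 without P1033, -0.08 without TP-1036, 0.20 without P1041 and 0.18 without TP-1040. In this list mt-Nd6 at 0.28 ± 0.19 and mt-Nd4l at -0.16 ± 0.19 had the smallest p of the list. Of 44 assembly factors, which build the complexes, 26 had higher values (median 0.05, but -0.01 without TP-1036 and 0.10 without TP-1040). Cox10, a haem enzyme for complex IV, stood at 0.30 ± 0.13, and Tmem70, an ATP synthase factor, at 0.25 ± 0.12. Of 17 genes of the TCA cycle and pyruvate dehydrogenase 15 were higher (median 0.09, and 0.03 without TP-1036), led by Mdh2 at 0.26 ± 0.15 and Suclg1 at 0.26 ± 0.15. Of 15 regulators of mitochondrial biogenesis 5 had higher values, with a median of -0.05, which was 0.01 without TP-1036 and -0.09 without TP-1040. Among them the coactivator Ppargc1b measured 47.2 and 48.0 CPM in wild type against 65.8 and 66.9 CPM, without overlap and close within each group. Its log2 difference was 0.48 ± 0.11, the smallest p of these lists (adjusted p = 0.466), while Polrmt, the mitochondrial RNA polymerase, stood at -0.13 ± 0.12.

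Carrier, cytochrome c and import genes were higher in 19 of 23 (median 0.16, and 0.01 without TP-1036). The uncoupling protein Ucp2 measured 12.7 and 15.6 CPM in wild type against 33.1 CPM in TP-1036 and 16.8 CPM in TP-1040. Its log2 difference of 0.81 ± 0.31 rested on TP-1036, and the import receptor Tomm70a stood at -0.19 ± 0.11. Glycolysis genes were higher in 15 of 17 (median 0.12, but -0.07 without TP-1036 and 0.305 without TP-1040), with Hk1 at 0.28 ± 0.17 and Pfkp at -0.20 ± 0.12. Mitochondrial ribosomal proteins were higher in 68 of 78 (median 0.14, and 0.04 without TP-1036), with Mrpl54 at 0.46 ± 0.16 and Mrps21 at 0.37 ± 0.16. Cytosolic ribosomal proteins, which have no part in respiration and whose transcripts are also short, with a median of 803.5 bases, were higher in 79 of 80, with a median of 0.27, and 0.04 without TP-1036. Their medians were 0.46 for TP-1036 and 0.04 for TP-1040, with Rpl7a at 0.35 ± 0.14 and Rpl28 at 0.34 ± 0.14. TP-1036 was the highest library for 79 of these 80 genes.

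**Figure D5:**
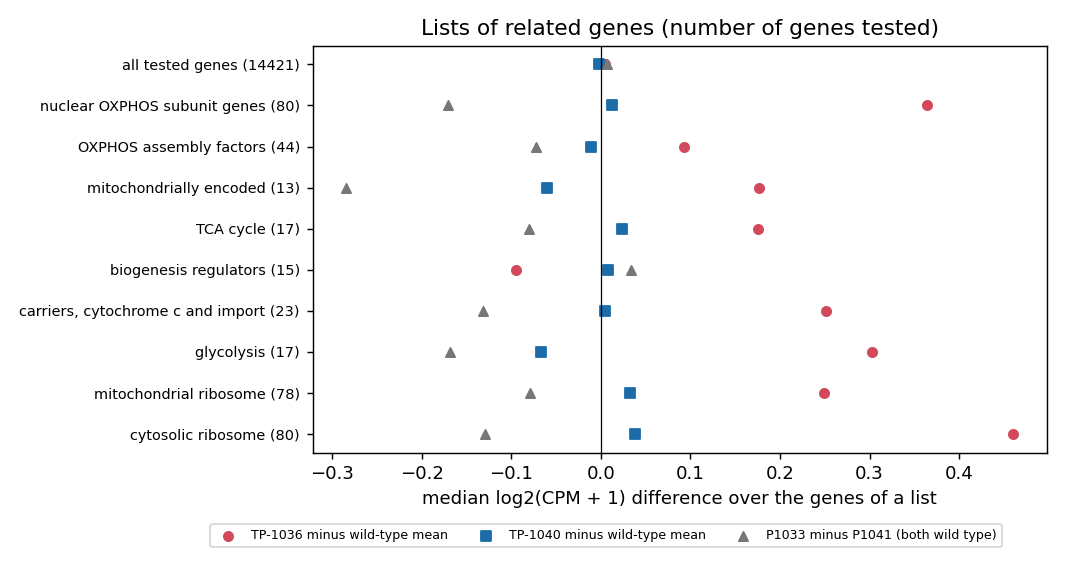
Median log2(CPM + 1) difference over the genes of each list, for TP-1036 and TP-1040 against the wild-type mean and for P1033 against P1041. Cytosolic ribosomal proteins (0.46) and the nuclear subunits (0.36) lie furthest to the right in TP-1036, and only the biogenesis regulators lie below 0 there (-0.10).

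Cell type markers also moved between the libraries, and fewer cells of a type cannot be told apart from less RNA per cell in whole retina. All 7 rod markers were present, as the retina label asks, and summed to 58410 and 52260 CPM in wild type against 66190 and 60120 CPM, and like the members' sum theirs was highest in TP-1036 and lowest in P1033. The 6 cone markers summed to 1194 and 1187 CPM against 1380 and 1165 CPM, and the 6 Müller glia markers to 3826 in both wild-type libraries against 5129 and 4240 CPM. The 7 ganglion cell markers summed to 724 and 483 CPM against 448 and 394 CPM, and the 7 microglia and macrophage markers to 100 and 117 CPM against 278 and 192 CPM. Of 5 lens markers 1 was present, the crystallin Cryaa, at 1.81 and 0.060 CPM against 148 and 2.98 CPM, so that its level stood out in TP-1036. The 4 of 5 pigment epithelium markers present summed to 21.7 and 24.1 CPM against 31.0 and 27.7 CPM. The 2 of 3 red cell markers present summed to 26.3 and 29.5 CPM against 51.4 CPM in TP-1036 and 17.6 CPM in TP-1040. The 5 amacrine markers had lower sums, at 542 and 533 CPM against 666 and 585 CPM in wild type. The 6 bipolar markers summed to 1467 and 1632 CPM against 1573 and 1744 CPM and so were highest in TP-1040. The part of the cell mixture in the members' pattern was not tested.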

How the data were processed

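Per the labels' protocols, TruSeq libraries were built from total RNA. Bowtie 0.12.2 and 2 mouse builds, mm8 and mm9, appear with no role in the submitters' processing notes. The read counter, annotation and use of strand were not given in the sources used here. From 1 table that the authors deposited, the columns of estimated counts (80.3% to 82.4% whole, the unit being read from the values) were used, while 4 other columns of values were not used. Of the members 67 had whole counts in every library and 13 did not. No source ties a library to its own animal, and p-values reflect library-to-library spread only, which may be technical. Within groups, counts differed by more than sampling noise (chi-square 11.1 and 60.2 times its degrees of freedom).

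Counts were rounded and genes with a mean of at least 1 CPM tested with edgeR 4.0.16 in R 4.3.3 (TMM, quasi-likelihood, two-sided, Benjamini-Hochberg over 14421 genes, threshold 0.05). Each SE is the absolute log2 difference over the square root of F. Library values use log2(CPM + 1), with a pseudocount of 1. With 2 against 2 libraries an exact permutation p cannot fall below 0.333. Transcript lengths are medians from GENCODE M21, found for 14492 of 14572 entries and all members. DESeq2 1.42.0, limma 3.58.1, other scalings and filters, a length offset and left-out libraries were alternatives. The test was tried on simulated data. Protein sequences were not analysed here.

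The members and lists were chosen with earlier results of these data known. The rule for named genes took, in each complex, the 3 members with the smallest p, the 2 highest per kilobase and the lowest by CPM, with paralog sets, the Sdh genes and the 2 genes of smallest p in each related list. Roles within complexes, Ndufs7, Ndufs1, Ndufb2, Atp5k and genes named for YY1-type letters were chosen after values were seen. The separate values of 1 member that this rule took are not reported here.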

Additional observations from a re-analysis of the deposited data

How the results depend on the processing

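No paired analysis was possible because the columns carry no replicate numbers. The number of members past the threshold was 0 in all 10 alternatives that kept the 4 libraries and ran from 0 to 49 when a library was left out, with 49 only without TP-1040. Their median log2 difference was lowest without TP-1036, at 0.013, and highest without TP-1040, at 0.372, and was 0.057 with the length offset. Without TP-1040, where 4224 of all tested genes passed, 5 assembly factors, 1 mitochondrially encoded gene, 3 TCA cycle genes, 1 biogenesis regulator, 9 carrier and import genes, 6 glycolysis genes, 19 mitochondrial and 73 cytosolic ribosomal genes passed, against 0 in each list without any other library. The count over all genes, 1 as reported, was 0 with library totals alone and at a mean CPM of at least 5, 2 with quantile normalization and with limma on log2(CPM + 1), 84 with DESeq2, and from 19 to 4224 with a library left out; the cause was not tested. Over all 80 members, 35 were below 0 without TP-1036 and 19 with the length offset, against 4 in the main fit. Single genes are given only where the text names them. Those that changed sign without 1 library ranged from -0.079 to 0.490 (Atp5g3), -0.090 to 0.471 (Cox4i1) and -0.009 to 0.672 (Cox4i2). Others ranged from -0.042 to 0.431 (Cox6a1), -0.046 to 0.332 (Cox6b2), -0.154 to 0.632 (Ndufa4l2) and -0.051 to 0.410 (Uqcr11). The rest ranged from -0.012 to 0.281 (Plscr1), -0.200 to 0.191 (Atp5k), -0.296 to 0.144 (Atp5s) and -0.107 to 0.093 (Ndufb2). Under upper-quartile scaling and quantile normalization Atp5k was 0.002 and 0.008 and Ndufb2 0.007 and 0.001, and with the length offset Cox6b2 was -0.031 and Uqcrb -0.046. Depth was lowest for Ndufa4l2, with 167 reads over the 4 libraries.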
